A study of Mus musculus with 10 samples.

Results

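The Schlafen genes are 7 mouse genes, Slfn1, Slfn2, Slfn3, Slfn4, Slfn5, Slfn8 and Slfn9, followed here in lactating mammary glands 12 h after injection of bacterial endotoxin. They were taken as the rows of the deposited expression table whose Ensembl identifier carries 1 of these 7 symbols, 7 genes of 35275 in the table. The family was taken up with its LPS and PBS values in view, so those values are given as a description and no p-value is printed for a member in that contrast. Total RNA was sequenced from 5 glands that received LPS (lipopolysaccharide of E. coli 055: B5, 50 µL at 0.4 mg/mL) and 5 that received 50 µL of sterile PBS. All came from BALB/c mice, an inbred strain, on lactation day 3, and both treatments went through the teat opening into the 4th gland pair. Per the labels 1 side of a mouse received LPS and the other PBS (n = 9 there, while 10 libraries are analysed here), so a PBS gland lay in an animal that had an LPS gland and no gland without an injection was sequenced. The labels do not say that equal replicate numbers come from the same mouse, and p-values for other genes measure only the spread between these glands. Libraries held 15734303 to 18869545 counted reads. The 10 listed genes of milk-producing epithelium summed to 159200 to 213800 FPKM in LPS glands and to 199400 to 253300 FPKM in PBS glands, where FPKM is fragments scaled by gene length and by library depth, so the labelled tissue carried its defining transcripts.

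Schlafen genes are found in mammals as a family that expanded in rodents, and many of them are switched on by type I interferon, the antiviral cytokine that is also made after endotoxin is sensed through TLR4. All members share an amino-terminal core. The short mouse members Slfn1 and Slfn2 hold little more than this core, Slfn3 and Slfn4 are of intermediate size, and the long members Slfn5, Slfn8 and Slfn9 add a carboxy-terminal region that resembles a helicase.

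All 7 genes lie on chromosome 11 (mouse build mm10, GENCODE M21 annotation) within a cluster of 335378 bases that also holds the pseudogene Slfn10-ps and Slfn14. Slfn5 (ENSMUSG00000054404) lies at 82951349 to 82964840, Slfn2 (ENSMUSG00000072620) at 83065112 to 83070678 and Slfn1 (ENSMUSG00000078763) at 83116849 to 83122670. Slfn4 (ENSMUSG00000000204) lies at 83175186 to 83190216 and its neighbour Slfn3 (ENSMUSG00000018986) at 83191330 to 83215154, and these 5 genes are on the plus strand. Slfn9 (ENSMUSG00000069793, 82978390 to 82991830) and Slfn8 (ENSMUSG00000035208, 83002158 to 83020810) are on the minus strand. The members are related copies, and reads that fit more than 1 of them could be lost or split. Of the distinct 50-base words in its annotated transcripts, Slfn5 shared 0% with another Schlafen gene, Slfn1 0.606% and Slfn2 4.27%. The share was 7.39% for Slfn3 and 8.15% for Slfn4, mostly with each other (252 words), and 11.2% for Slfn9 and 14.6% for Slfn8, mostly with Slfn10-ps. The values of Slfn3, Slfn4, Slfn8 and Slfn9 are therefore the less certain ones. Slfn5os overlaps Slfn5 on the other strand, and since the labels do not state whether counting used strand, their reads cannot be told apart. Slfn5os was listed at 0 to 0.302 FPKM in LPS glands and at 0 to 0.620 FPKM in PBS glands, against 7.60 FPKM or more for Slfn5. Gm20234, annotated on the other strand over part of Slfn2, was not analysed here.

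**Figure D1:**
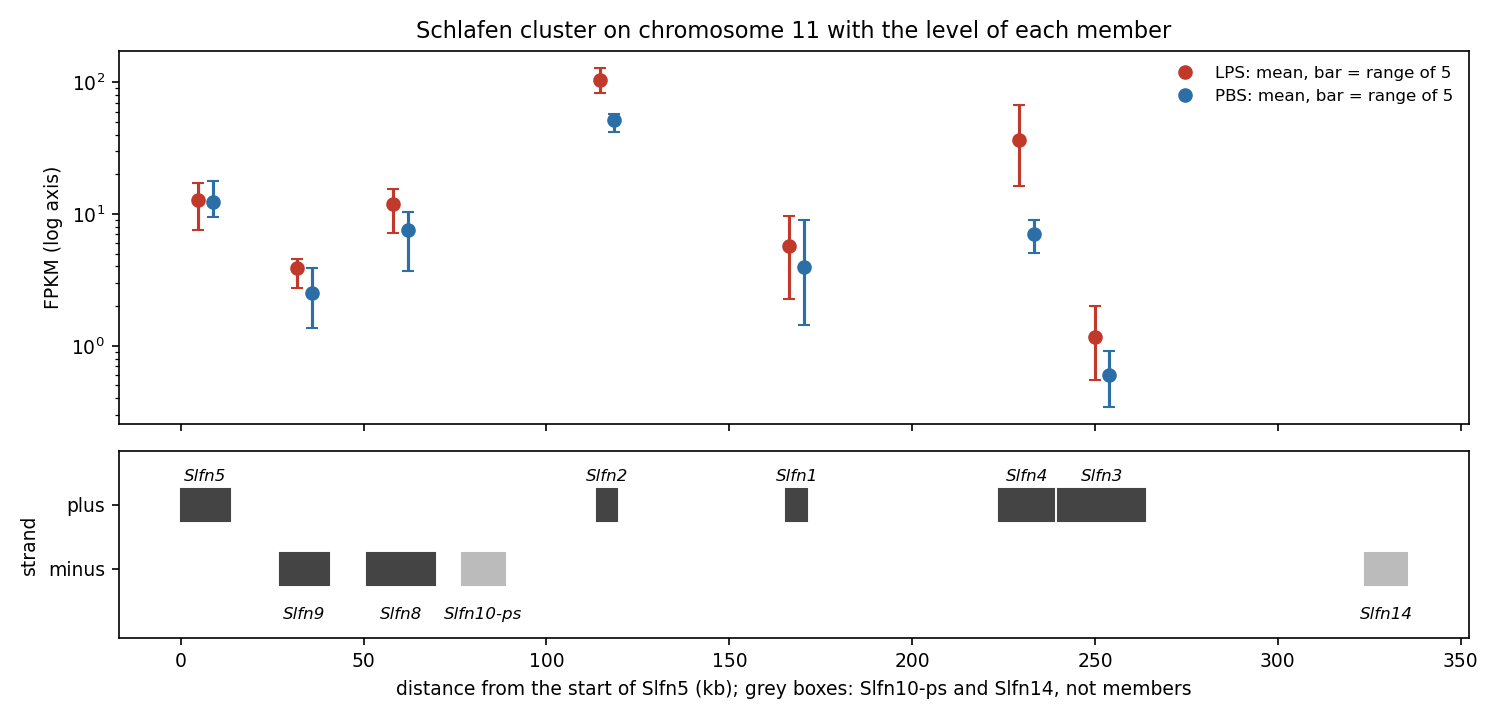
Upper panel: level of each Schlafen gene in FPKM (log axis; points are means, bars the range of 5 glands, LPS left of PBS) above its place in the cluster. Lower panel: gene bodies by strand against distance from the start of Slfn5 in kb. Slfn2, in the middle of the cluster, was the highest in both groups (103.5 FPKM in LPS glands and 51.8 in PBS glands), and Slfn3, beside Slfn4, was the lowest (1.16 FPKM in LPS glands and 0.602 in PBS glands).

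The sequences before the transcription starts are shown for the 2 members past the test's threshold, Slfn2 and Slfn4, and for the 3 that hold the core letters of the interferon-stimulated response element. They are the 250 bases before the RefSeq start (GRCm38.p6), 5′ to 3′ on the strand of the gene, in lower case with the element in capitals. Slfn2 is from chr11:83064862-83065111 (plus), Slfn4 from chr11:83174936-83175185 (plus), Slfn5 from chr11:82951852-82952101 (plus; this RefSeq start lies 753 bases downstream of the start in GENCODE M21, so the stretch is inside the gene as annotated there), Slfn8 from chr11:83020811-83021060 (minus; a second RefSeq start is not shown) and Slfn9 from chr11:82991831-82992080 (minus).
Slfn2: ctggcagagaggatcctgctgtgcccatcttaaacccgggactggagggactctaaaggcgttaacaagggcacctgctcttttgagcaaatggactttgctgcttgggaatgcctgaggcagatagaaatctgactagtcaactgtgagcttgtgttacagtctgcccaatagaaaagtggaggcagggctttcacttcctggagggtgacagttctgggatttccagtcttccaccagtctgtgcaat
Slfn4: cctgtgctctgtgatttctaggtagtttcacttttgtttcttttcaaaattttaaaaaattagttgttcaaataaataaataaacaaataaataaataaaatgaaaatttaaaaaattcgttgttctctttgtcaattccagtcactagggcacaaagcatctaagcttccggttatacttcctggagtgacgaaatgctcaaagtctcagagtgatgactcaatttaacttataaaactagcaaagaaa
Slfn5: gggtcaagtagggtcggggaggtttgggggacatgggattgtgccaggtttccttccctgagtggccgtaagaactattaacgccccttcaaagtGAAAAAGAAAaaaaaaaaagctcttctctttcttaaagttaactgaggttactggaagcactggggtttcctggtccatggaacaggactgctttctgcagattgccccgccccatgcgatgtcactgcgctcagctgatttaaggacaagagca
Slfn8: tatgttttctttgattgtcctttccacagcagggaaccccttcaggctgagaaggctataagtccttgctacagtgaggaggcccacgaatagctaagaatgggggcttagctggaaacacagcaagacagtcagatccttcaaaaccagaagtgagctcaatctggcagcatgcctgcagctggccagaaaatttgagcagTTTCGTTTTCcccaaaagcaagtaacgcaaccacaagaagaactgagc
Slfn9: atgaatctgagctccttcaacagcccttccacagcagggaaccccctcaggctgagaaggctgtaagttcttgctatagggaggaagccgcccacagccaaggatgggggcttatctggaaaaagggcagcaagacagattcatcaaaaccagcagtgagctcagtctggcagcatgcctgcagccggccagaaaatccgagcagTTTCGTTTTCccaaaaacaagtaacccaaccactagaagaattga
The element was searched on both strands as GAAA, any 2 bases and GAAA, in windows from 250 bases before to 50 bases after each start. It was found in Slfn5, Slfn8 and Slfn9, 3 of 7 members, and in 3.44% of all 32851 RefSeq promoters. In Slfn5 it read GAAAAAGAAA, 155 to 146 bases before the start. In Slfn8 and Slfn9 it lay on the opposite strand, printed as TTTCGTTTTC, at 48 to 39 and at 45 to 36 bases before the start. The Slfn8 and Slfn9 stretches were 79.8% identical (206 of 258 alignment columns), against 40.7% to 49.1% for the other 20 pairs of members, so these 2 matches are not independent. The core of the interferon gamma activated site, TTCNNNGAA (8.30% of all promoters), and an NF-kB core, GGG, any 2 bases and TTTCC (1.63%, both strands), were in no member's window. The NF-kB core was searched only with 2 bases between GGG and TTTCC. The printed Slfn2 and Slfn5 stretches hold gggatttcc and ggggtttcc, a shorter spacing that the search did not cover. How often that spacing occurs in all promoters was not counted. A match is a run of letters and not a measured binding site. The 2 members called higher in LPS glands held none of the 3 patterns as searched.

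In LPS glands Slfn2 was 1.998-fold and Slfn4 5.17-fold as high as in PBS glands, Slfn1, Slfn3, Slfn8 and Slfn9 had 1.47-fold to 1.93-fold higher means with overlapping groups, and the means of Slfn5 were 1.02-fold apart. Of the 7 members 6 passed the filter (FPKM of at least 1 in at least 5 libraries), and 2 of the 6, Slfn2 and Slfn4, were past an adjusted p of 0.05 over all genes (limma on log2(FPKM + 1), Benjamini-Hochberg), both higher. Of all 11414 genes tested 3.23% were past it, 300 higher (2.63%) and 69 lower (0.605%), and nothing is read from the members' share because the family was taken up for this contrast. The same 2 genes were the ones with every LPS gland above every PBS gland, as in 3.53% of all tested genes (the reverse in 1.22%). In a whole gland, more cells of a type and more RNA per cell cannot be told apart. Leaving out each library in turn kept the count at 2 members, but without the 3 libraries of highest summed T cell markers (LPS replicate 3, PBS replicates 2 and 4; chosen after seeing the data) limma called 0 of 6 members, with 4 at an unadjusted p below 0.05 and log2 changes of 0.99 ± 0.17 for Slfn2 and 2.06 ± 0.42 for Slfn4 (SE). That setting left 32 called genes of all, and leaving out LPS replicate 2 left 144, LPS replicate 3 195, PBS replicate 1 161, PBS replicate 4 153 and PBS replicate 5 225.

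**Figure D2:**
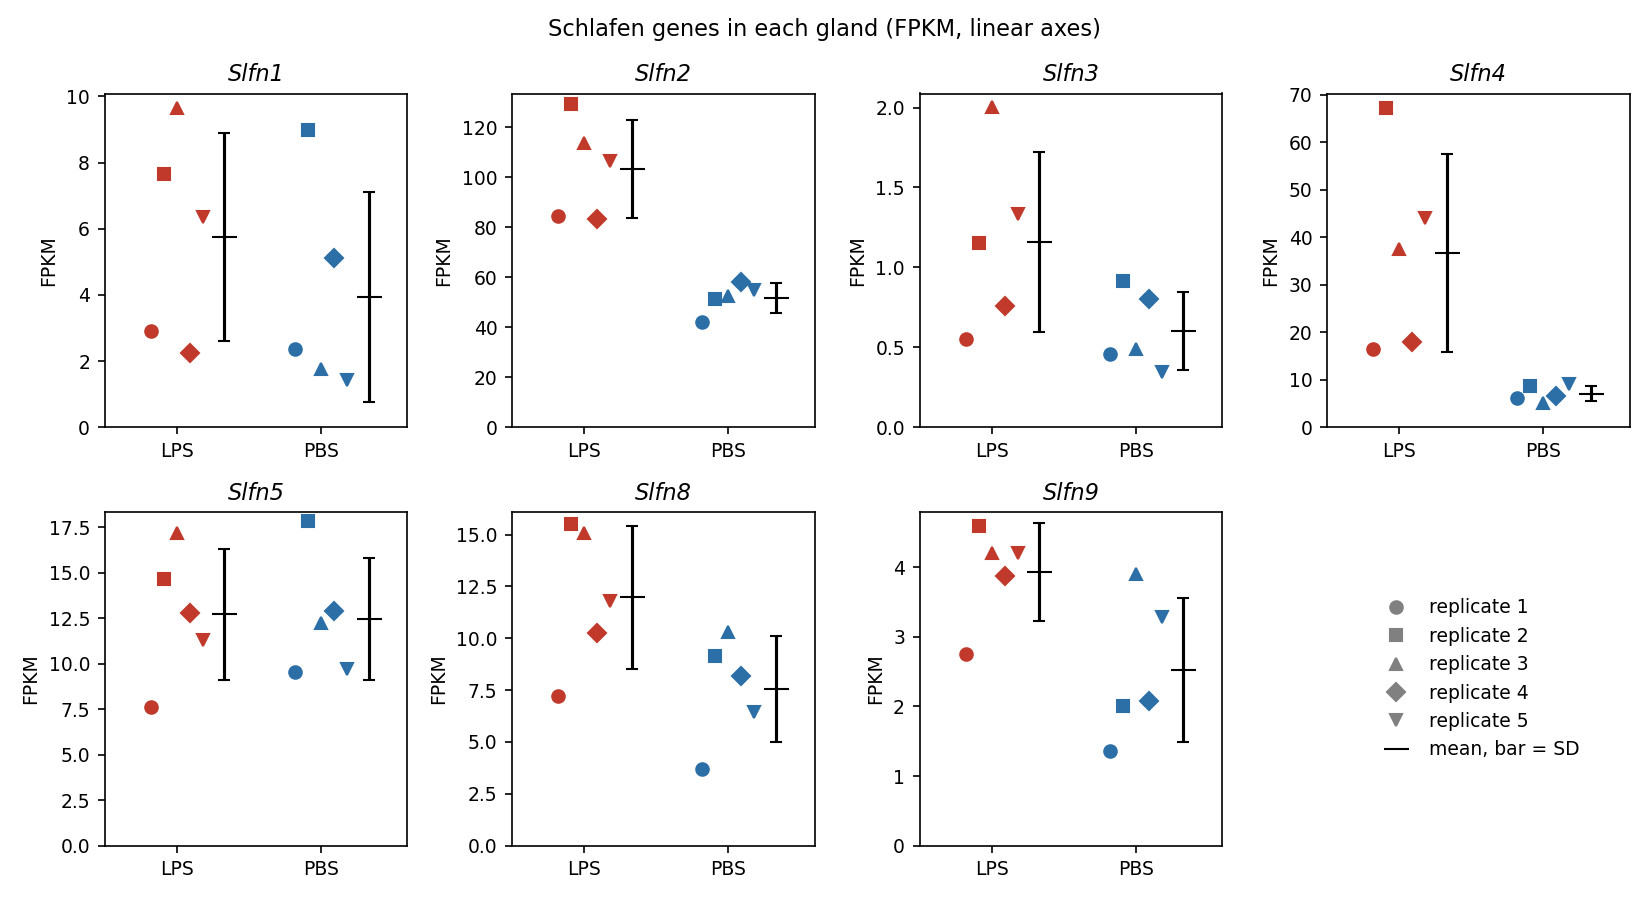
FPKM of each Schlafen gene in each of the 10 glands (linear axes from 0; the symbol gives the replicate, the bar the mean and SD of 5 glands, LPS left of PBS). Slfn2 and Slfn4 have no overlap between groups; in both, LPS replicates 2, 3 and 5 are the highest.

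Slfn4, an interferon-inducible gene of mouse myeloid cells, had the largest SD relative to its mean of the 7 members in LPS glands (57.0%), followed by Slfn1 (54.6%). It had 16.4, 67.2, 37.4, 18.0 and 44.1 FPKM in LPS replicates 1 to 5, against 6.24, 8.57, 5.10, 6.54 and 8.99 FPKM in PBS replicates 1 to 5. The lowest LPS gland was thus above the highest PBS gland, while LPS replicates 1 and 4 stood well below the other 3. The means were 36.6 ± 20.9 FPKM in LPS glands and 7.09 ± 1.64 FPKM in PBS glands (SD, n = 5 each), and the log2 change was 2.05 ± 0.33 (SE). The value rests on 342 to 4828 reads per library. In the authors' deposited table the log2 fold change of Slfn4 is 1.36. DESeq2 on reads recovered from FPKM gave 2.29, and the lowest value of the alternatives run here was 1.64. The reason for this gap was not tested.

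Slfn2, which in mice keeps T cells and monocytes quiescent, had an SD of 19.0% of the mean in LPS glands and 11.7% in PBS glands. It had 84.6, 129.2, 113.7, 83.1 and 106.7 FPKM in LPS replicates 1 to 5, against 41.9, 51.3, 52.7, 57.9 and 55.1 FPKM in PBS replicates 1 to 5. The gap between the lowest LPS gland and the highest PBS gland was wider than the whole range of the PBS glands. The means were 103.5 ± 19.7 FPKM in LPS glands and 51.8 ± 6.07 FPKM in PBS glands (SD, n = 5 each), with a log2 change of 0.97 ± 0.13 (SE) from 1261 to 3901 reads per library. The authors' deposited table lists Slfn2 with a log2 fold change of 0.86, and holds no other member than Slfn2 and Slfn4.

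Slfn1, the founding member, which slows the growth of mouse thymocytes when forced on, had the largest SD relative to its mean of the 7 members in PBS glands (80.9%). It had 2.90, 7.66, 9.64, 2.25 and 6.36 FPKM in LPS replicates 1 to 5, against 2.37, 9.00, 1.74, 5.11 and 1.44 FPKM in PBS replicates 1 to 5. The groups overlapped almost wholly, and PBS replicate 2 was above 4 of the 5 LPS glands. The means of 5.76 ± 3.14 FPKM in LPS glands and 3.94 ± 3.18 FPKM in PBS glands (SD, n = 5 each) gave a log2 change of 0.53 ± 0.41 (SE), not past the threshold.

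Slfn3, known in rat intestine as a gene of epithelial differentiation, was the lowest member and did not pass the filter, with 1 FPKM or more in 3 of 10 libraries. It had 0.554, 1.15, 2.01, 0.759 and 1.33 FPKM in LPS replicates 1 to 5, against 0.457, 0.914, 0.488, 0.805 and 0.344 FPKM in PBS replicates 1 to 5. LPS replicates 2, 3 and 5 were above every PBS gland and LPS replicates 1 and 4 were not. The means were 1.16 ± 0.564 FPKM in LPS glands and 0.602 ± 0.244 FPKM in PBS glands (SD, n = 5 each), a 1.93-fold difference. These values rest on 10 to 63 reads per library. The authors' length for Slfn3 was 1816 bases while its exons in GENCODE M21 cover 3411, so its level relative to the other members depends on the annotation.

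Slfn8, a long member, was higher in LPS replicates 2, 3 and 5 than in any PBS gland. It had 7.23, 15.5, 15.1, 10.2 and 11.8 FPKM in LPS replicates 1 to 5, against 3.71, 9.15, 10.3, 8.19 and 6.45 FPKM in PBS replicates 1 to 5. The means were 12.0 ± 3.45 FPKM in LPS glands and 7.55 ± 2.57 FPKM in PBS glands (SD, n = 5 each), a 1.58-fold difference. The log2 change was 0.62 ± 0.24 (SE), not past the threshold with the glands taken as unpaired. With equal replicate numbers taken as pairs Slfn8 was past it, but the labels do not state such pairs.

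Slfn9, the neighbour of Slfn8 on the same strand, had 2.75, 4.59, 4.21, 3.87 and 4.21 FPKM in LPS replicates 1 to 5, against 1.37, 2.002, 3.90, 2.08 and 3.28 FPKM in PBS replicates 1 to 5. LPS replicates 2, 3 and 5 were again above every PBS gland. The means were 3.93 ± 0.705 FPKM in LPS glands and 2.53 ± 1.03 FPKM in PBS glands (SD, n = 5 each), a 1.55-fold difference. The log2 change was 0.52 ± 0.19 (SE), not past the threshold with the glands taken as unpaired. As for Slfn8, it was past the threshold with equal replicate numbers taken as pairs.

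Slfn5, a nuclear long member whose human counterpart is induced by interferon, had 7.60, 14.7, 17.2, 12.8 and 11.3 FPKM in LPS replicates 1 to 5, against 9.54, 17.8, 12.3, 12.9 and 9.71 FPKM in PBS replicates 1 to 5. The groups overlapped over nearly their whole range, and the highest gland was a PBS gland. The means were 12.7 ± 3.61 FPKM in LPS glands and 12.4 ± 3.36 FPKM in PBS glands (SD, n = 5 each). The log2 change was 0.02 ± 0.20 (SE), not past the threshold, and its sign turned under other scalings (-0.05 under median-of-ratios, -0.06 under quantile and -0.18 under FPKM rescaled outside milk proteins).

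**Figure D3:**
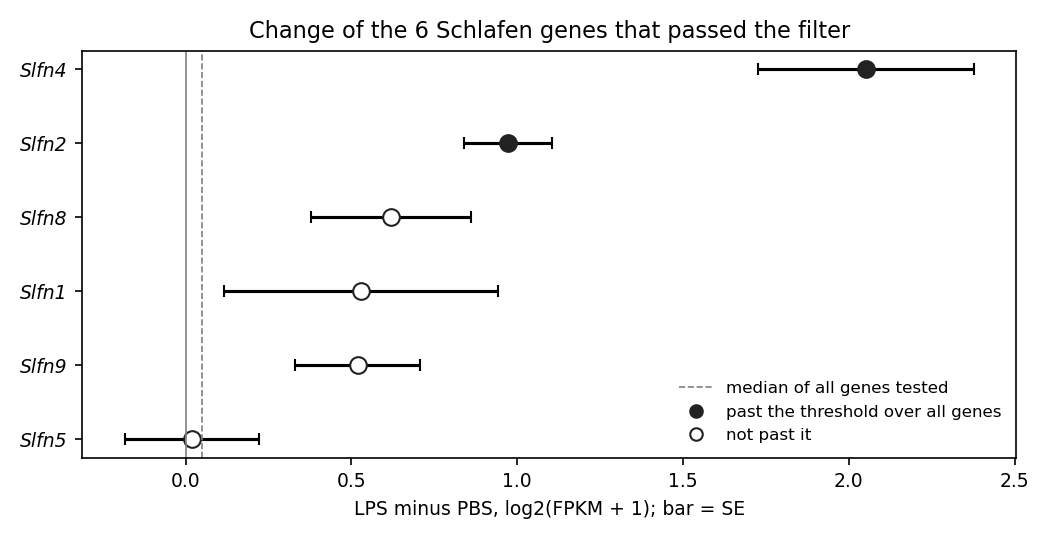
Log2 change, LPS minus PBS, on the log2(FPKM + 1) scale with its SE (n = 5 glands per group) for the 6 members that passed the filter; filled points are past the threshold over all genes and the dashed line is the median of all genes tested (0.05). Slfn4 (2.05) is the highest and Slfn2 (0.97) the next, before Slfn8, Slfn1 and Slfn9 (0.52 to 0.62). Slfn5 is the lowest (0.02, and below 0 under the other 3 scalings). The bar of Slfn2 (SE 0.13) overlaps those of Slfn8 (SE 0.24) and Slfn1 (SE 0.41), and members were not tested against each other.

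The log2 changes moved with the scaling, from 0.97 as deposited to 0.76 under FPKM rescaled outside milk proteins for Slfn2. For Slfn1 they went from 0.53 to 0.36. Set against the median of all genes, the 6 changes moved little. Median-of-ratios and the rescaling outside milk proteins multiply each library by a constant, which shifts a gene and the median nearly alike. The narrow ranges below are therefore no check of stability under these scalings. That median was 0.05 with FPKM as deposited and -0.13 with FPKM rescaled outside milk proteins, where 128 genes were called higher and 348 lower, so that 26.9% of calls were higher, against 81.3% as deposited. The share higher was 68.8% under median-of-ratios and 61.6% under quantile scaling. Relative to the median of the same scaling, Slfn4 was at 1.99 to 2.01, Slfn2 at 0.85 to 0.92, Slfn8 at 0.56 to 0.57, Slfn1 at 0.48 to 0.50, Slfn9 at 0.47 to 0.50 and Slfn5 at -0.05 to -0.03 over the 4 scalings.

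The order of the members differed between the groups in the place of Slfn4 only, going by mean FPKM as deposited, which is per length. The authors' lengths were 4080 bases for Slfn5 and 4530 for Slfn9, while their exons in GENCODE M21 cover 6326 and 5965. The places of these 2 genes, and whether only Slfn4 changed place, therefore depend on the annotation, as for Slfn3. In LPS glands it ran Slfn2, Slfn4, Slfn5, Slfn8, Slfn1, Slfn9 and Slfn3, and in PBS glands Slfn2, Slfn5, Slfn8, Slfn4, Slfn1, Slfn9 and Slfn3. In both groups the range of Slfn2 lay above that of the next gene and the range of Slfn9 above that of Slfn3. All other neighbours in the order had overlapping ranges: Slfn5 was above Slfn8 in 3 of 5 LPS glands, and Slfn8 above Slfn4 in 3 of 5 PBS glands.

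The summed level of the 7 members was 122.0, 240.0, 199.3, 131.0 and 185.8 FPKM in LPS replicates 1 to 5 (mean 175.6 ± 49.2, SD), against 65.6, 98.7, 86.5, 93.5 and 85.3 FPKM in PBS replicates 1 to 5 (mean 85.9 ± 12.6, SD). Every LPS gland was above every PBS gland, and LPS replicates 1 and 4 were the lowest of the LPS glands. Slfn2 made up 60.2% ± 6.14 of this sum in LPS glands and 60.7% ± 5.10 in PBS glands (SD, n = 5 each). Slfn4 made up 13.5% to 28.0% in LPS glands, against 5.90% to 10.5% in PBS glands. Slfn5 made up 6.09% to 9.75% in LPS glands, against 11.4% to 18.1% in PBS glands. The shares of the other 5 members overlapped between groups. A share moves with the sum as well as with the member: the FPKM of Slfn5 itself averaged 12.7 in LPS glands and 12.4 in PBS glands. The size of a share also depends on the gene lengths used.

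The spread between glands of 1 group differed by member. The SD was 57.0% of the mean for Slfn4 in LPS glands and 23.1% in PBS glands. It was 17.9% for Slfn9 in LPS glands, the lowest of the 7 there, and 41.0% in PBS glands. For Slfn1 it was 54.6% in LPS glands and 80.9% in PBS glands. The highest LPS gland had 4.28 times the Slfn1 and 4.09 times the Slfn4 of the lowest, and the highest PBS gland 6.24 times the Slfn1 and 1.76 times the Slfn4.

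Whether members moved together from gland to gland was tested on the deviations of log2(FPKM + 1) from the group means over the 10 libraries. These deviations leave out the difference between the LPS and PBS means. They do enter the SE of that difference, so the test is not independent of the contrast. Of the 15 pairs of the 6 members, 14 had a positive Pearson r, but 0 pairs were past an adjusted p of 0.05 (two-sided exact permutation within groups, adjusted over the 15 pairs; 6 pairs at an unadjusted p below 0.05; 0 pairs by Spearman's rho). The permutation takes the glands as independent, which does not hold where an LPS and a PBS gland came from the same mouse. The highest was Slfn2 with Slfn4, at r = 0.81 (permutation p = 0.0228, adjusted p = 0.0854) and Spearman rho = 0.69 (p = 0.0719, adjusted p = 0.216), and r was 0.85 without the 2 libraries farthest from the median of Slfn2. The 2 genes were highest in the same 3 LPS glands, while their order in the PBS glands differed, with replicate 3 lowest in Slfn4 and replicate 1 lowest in Slfn2. Slfn5 with Slfn8 had r = 0.80 (permutation p = 0.00882, adjusted p = 0.0854), rho = 0.70 (p = 0.0441, adjusted p = 0.216) and r = 0.73 without the 2 farthest. Slfn2 with Slfn8 had r = 0.79 (permutation p = 0.0122, adjusted p = 0.0854), rho = 0.64 (p = 0.0698, adjusted p = 0.216) and r = 0.74 without the 2 farthest. Slfn1 with Slfn5 had r = 0.76 (permutation p = 0.0182, adjusted p = 0.0854), rho = 0.72 (p = 0.0342, adjusted p = 0.216), the highest rho of the 15, and r = 0.82 without the 2 farthest. The neighbours Slfn8 and Slfn9, whose promoters are most alike, had r = 0.71 (permutation p = 0.0328, adjusted p = 0.0983) and rho = 0.69 (p = 0.0503, adjusted p = 0.216), but r = 0.17 without LPS replicate 1 and PBS replicate 1, so that relation rests on those glands. The lowest was Slfn1 with Slfn9, at r = -0.13 (permutation p = 0.749). Without PBS replicate 3, 2 pairs passed the adjusted threshold.

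**Figure D4:**
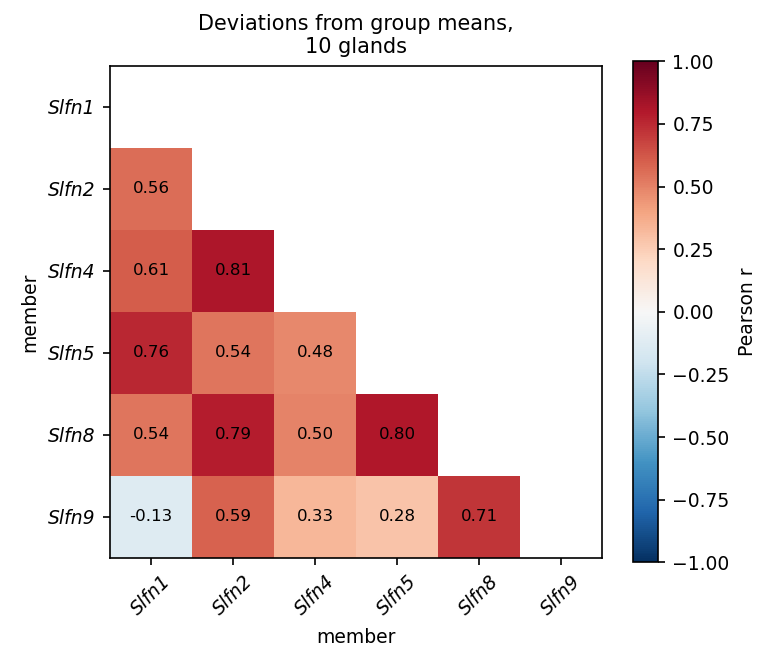
Pearson r between members over 10 glands (5 LPS, 5 PBS), computed from deviations of log2(FPKM + 1) from the group means; colour runs from -1 to 1. Slfn2 with Slfn4 (0.81), Slfn5 with Slfn8 (0.80) and Slfn2 with Slfn8 (0.79) are the highest of 15 pairs and Slfn1 with Slfn9 (-0.13) the only one below 0; 0 pairs passed the adjusted threshold.

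For each member that passed the filter, the 2 genes most like it in these deviations were picked from 10678 tested genes by the highest Pearson r over 10 libraries. With so many candidates high values are found for any gene, so r is a measure of likeness and carries no p-value. Slfn4 was most like Mxd1 (r = 0.99, rho = 0.96), a repressor of the Myc network, and Gp49a (r = 0.97, rho = 0.93), a receptor gene of myeloid cells. Slfn2 was most like Naip2 (r = 0.95, rho = 0.84), an inflammasome sensor of bacterial proteins, and Oasl1 (r = 0.93, rho = 0.73), an interferon-induced regulator of Irf7. Slfn9 was most like Ifih1 (r = 0.96, rho = 0.94), the sensor of viral double-stranded RNA, and Tmem173 (r = 0.96, rho = 0.90), which encodes STING. Slfn1 was most like Birc3 (r = 0.98, rho = 0.92), an inhibitor of apoptosis, and Apobec1 (r = 0.98, rho = 0.99), a cytidine deaminase. Slfn8 was most like Pla2g4a (r = 0.99, rho = 0.93), a cytosolic phospholipase, and Rnf31 (r = 0.97, rho = 0.90), part of the linear ubiquitin ligase. Slfn5 was most like Scaf4 (r = 0.99, rho = 0.99), which binds RNA polymerase II, and Atrx (r = 0.98, rho = 0.95), a chromatin remodeller. Of these 12 genes 2 passed the LPS against PBS test: Oasl1 rose by 1.53 ± 0.21 on the log2 scale (SE; limma adjusted p = 0.00373) and Gp49a by 1.45 ± 0.27 (SE; limma adjusted p = 0.0155).

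Genes of the interferon response stood higher in LPS glands. The list of 31 genes, which holds no Schlafen gene, had 31 tested, of which 19 rose and 0 fell, with a median log2 change of 0.96 (0.05 over all genes). Oas3, an activator of RNase L, rose to 10.02 ± 4.34 FPKM in LPS glands, against 1.95 ± 0.789 FPKM in PBS glands (limma adjusted p = 0.00825). Rsad2, which encodes viperin, rose to 56.7 ± 25.1 FPKM, against 18.0 ± 8.70 FPKM in PBS glands (limma adjusted p = 0.0188). Ifit1, which binds foreign RNA ends, rose to 58.9 ± 23.4 FPKM, against 18.9 ± 5.44 FPKM in PBS glands (limma adjusted p = 0.00814). Ifit3b, whose reads could be split with the near-identical Ifit3, had 40.3 ± 15.2 FPKM in LPS glands and 12.6 ± 3.09 FPKM in PBS glands (SD, n = 5 each; limma adjusted p = 0.00673). The list summed to 1171, 2142, 2010, 1403 and 1602 FPKM in LPS replicates 1 to 5. LPS replicates 2, 3 and 5, highest in Slfn2 and Slfn4, were also the highest 3 LPS glands in these genes. In PBS replicates 1 to 5 the sum was 552.0, 767.6, 1022, 790.6 and 888.5 FPKM, in another order than Slfn2 and Slfn4. PBS replicate 3 was highest in the sum but lowest in Slfn4, and Slfn2 was highest in PBS replicate 4. Without LPS replicate 2, 12 of the 31 were called, and without the 3 libraries of highest summed T cell markers limma called 0, with 29 at an unadjusted p below 0.05.

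Of the ligands, receptors and factors of the interferon pathway, 2 of 15 tested rose and 0 fell, with a median log2 change of 0.18. Irf7, the factor that amplifies type I interferon, had 126.0 ± 33.8 FPKM in LPS glands and 60.3 ± 12.2 FPKM in PBS glands (SD, n = 5 each; log2 change 1.03, limma adjusted p = 0.0181). Ifngr1, a receptor chain for interferon gamma, had 115.7 ± 12.5 FPKM in LPS glands and 85.4 ± 6.99 FPKM in PBS glands (log2 change 0.43, limma adjusted p = 0.0308). Of the ligands, Ifnb1 was below 0.1 FPKM in every library and Ifng did not pass the filter. Leaving out any single library other than LPS replicate 1 and PBS replicate 3 left 1 of 15 called, and without the 3 libraries of highest summed T cell markers limma called 0 of 15, with 4 at an unadjusted p below 0.05.

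Some neutrophil markers rose beside Slfn4. Of 20 markers 14 were tested, 4 rose and 0 fell, with a median log2 change of 0.75. The 4 were Retnlg, a resistin-like protein of granulocytes (log2 change 1.36, limma adjusted p = 0.0463), Csf3r, the G-CSF receptor (1.35, adjusted p = 0.0344), Clec4d, a C-type lectin (1.33, adjusted p = 0.0188), and Cxcr2, a chemokine receptor (1.19, adjusted p = 0.0475). The list summed to 117.4, 172.9, 104.0, 152.5 and 147.2 FPKM in LPS replicates 1 to 5, against 64.8 to 79.1 FPKM in PBS glands. LPS replicate 2 was the highest gland in this sum and in Slfn4, but the order of the others differed, with LPS replicate 3 lowest in the sum but above LPS replicates 1 and 4 in Slfn4. Cd177 alone had 60.7 ± 25.8 FPKM in LPS glands and 36.2 ± 10.1 FPKM in PBS glands. Without Cd177, left out after its values were seen, the sum was 42.4, 132.8, 69.2, 55.1 and 91.1 FPKM in LPS replicates 1 to 5, in the same order of glands as Slfn4, against 28.7, 42.7, 33.7, 40.5 and 32.0 FPKM in PBS replicates 1 to 5, where it was not. The part of neutrophil number in the Slfn4 level was not tested. The count rests on single libraries: it was 7 without LPS replicate 1 and 1 without LPS replicate 2, 3 or 5 or without PBS replicate 1, 3, 4 or 5, and limma called 0 of 11 without the 3 libraries of highest summed T cell markers, with 8 at an unadjusted p below 0.05.

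Markers of T cells set some glands apart in both groups. The 11 markers summed to 5.63, 12.2, 21.3, 8.02 and 7.71 FPKM in LPS replicates 1 to 5, against 6.08, 61.0, 6.46, 31.0 and 6.95 FPKM in PBS replicates 1 to 5. The 3 highest sums, in PBS replicates 2 and 4 and LPS replicate 3, were those of the PBS glands with the highest and second highest Slfn1, Slfn3 and Slfn5 of their group and of the LPS gland with the highest Slfn1, Slfn3 and Slfn5 of its group. The same 3 glands were also the highest in summed dendritic cell and NK cell markers. PBS replicates 2 and 4 and LPS replicate 3 had 16.9, 9.69 and 13.1 FPKM of the former. They had 15.5, 16.4 and 29.3 FPKM of the latter. The part of T cells, or of these other cells, in the levels of Slfn1, Slfn3 and Slfn5 was not tested. Without those 3 libraries the log2 change of Slfn1 was 0.92 ± 0.31 and that of Slfn5 0.10 ± 0.19 (SE), neither past the threshold. One T cell marker passed the filter, Thy1, with 6.24 ± 1.48 FPKM in LPS glands and 6.97 ± 4.05 FPKM in PBS glands (SD, n = 5 each; limma adjusted p = 0.976), and edgeR and DESeq2 called 0 T cell markers too.

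**Figure D5:**
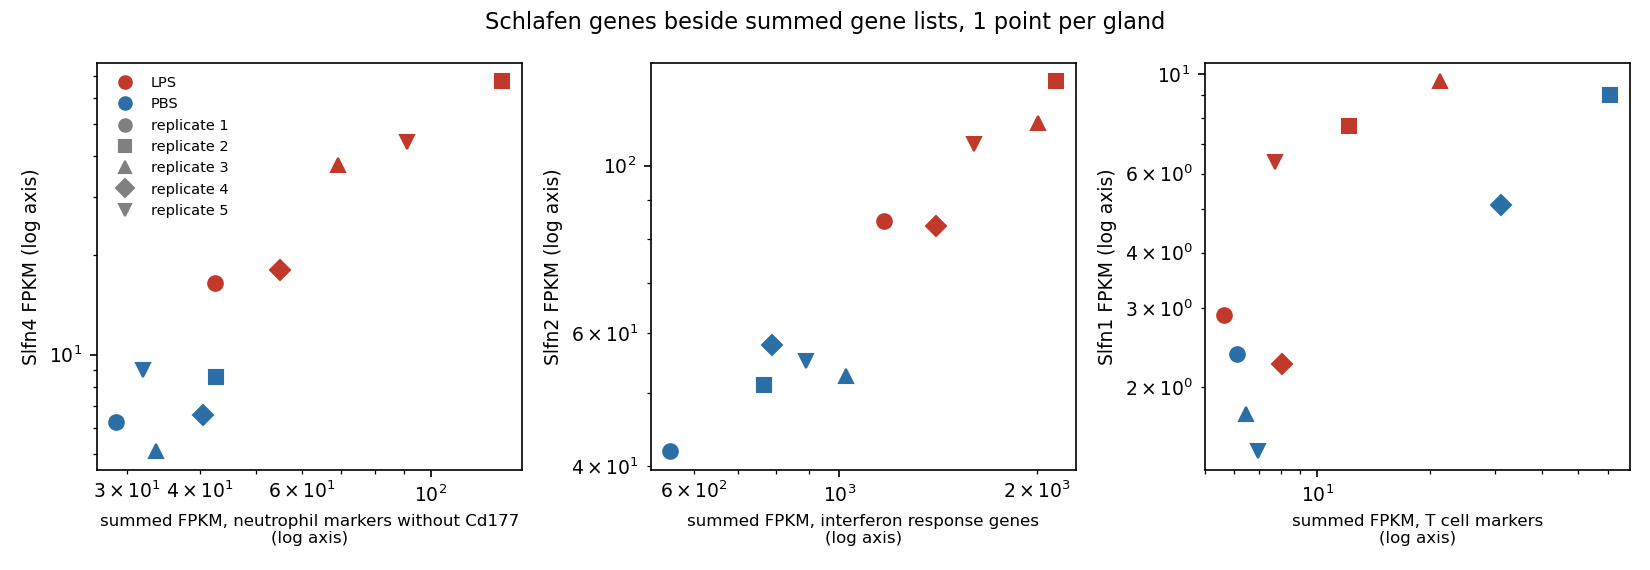
Left: Slfn4 against the summed neutrophil markers without Cd177; middle: Slfn2 against the summed interferon response genes; right: Slfn1 against the summed T cell markers, all in FPKM on log axes, 1 point per gland (LPS red, PBS blue, symbols give the replicate). Cd177 was left out after its values were seen, and the sum with Cd177 did not follow the order of Slfn4 in LPS glands. The LPS glands lie above the PBS glands in the left and middle panels, with LPS replicate 2 highest (67.2 FPKM of Slfn4 and 129.2 of Slfn2), while in the right panel the groups mix and Slfn1 is at 5.11 to 9.64 FPKM in the 3 glands richest in T cell markers.

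The other cell type lists had few or no called members. Of 12 tested monocyte and macrophage markers limma called 0 (1 at an unadjusted p below 0.05; edgeR 0, DESeq2 2 lower), with sums of 90.8 to 194.4 FPKM in LPS glands and 114.7 to 402.2 FPKM in PBS glands. For NK cells (3 tested), B and plasma cells (4), dendritic cells (3) and endothelium (6), limma, edgeR and DESeq2 each called 0, with 0 at an unadjusted p below 0.05. Of 10 markers of milk-producing epithelium, Krt8, a keratin of luminal cells, rose (188.4 ± 34.6 FPKM in LPS glands and 129.5 ± 14.2 FPKM in PBS glands, SD, n = 5 each; limma adjusted p = 0.0445), while the median of the 10 log2 changes was -0.17 and 5 of 10 were at an unadjusted p below 0.05. On the recovered reads edgeR called 0 of this list, and DESeq2 called 1 higher and 2 lower.

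Genes on either side of the Schlafen cluster were looked at as its surroundings. Of Rad51d, Nle1 and Ap2b1, limma called 0, with 1 at an unadjusted p below 0.05, and edgeR and DESeq2 also called 0. The limma adjusted p was 0.66 for Rad51d, 0.999 for Nle1 and 0.221 for Ap2b1. Ap2b1, an adaptor subunit of clathrin coats, had the largest mean difference of the 3, with 37.6 ± 6.23 FPKM in LPS glands and 29.3 ± 4.997 FPKM in PBS glands (SD, n = 5 each). Fndc8, Unc45b, Rasl10b and Gas2l2 did not pass the filter. Inside the cluster, Slfn10-ps had 0.510 ± 0.205 FPKM in LPS glands and 0.435 ± 0.247 FPKM in PBS glands, and Slfn14 was listed at no more than 0.0338 FPKM.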

How the data were processed

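RNA of 10 mammary glands was sequenced, 5 injected with LPS and 5 with PBS. The authors deposited FPKM for 35275 Ensembl genes. A second deposited table holds, per the file headers, raw counts, FPKM, values normalized by a size factor (a signal), log2 fold changes and p-values. It covers 908 genes that the authors called. Only its counts, FPKM, lengths, gene names and log2 fold changes were used. Its counts, FPKM and lengths gave the depth of each library. STAR 2.5, HTSeq 0.6.1, DESeq2 (version given as 2) and build mm10 are named in the submitters' processing notes, which were read without settings or annotation release. The labels do not state whether libraries or counting kept the strand.

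The Schlafen genes, gene lists and rules were chosen with earlier results of these data known. Named genes were the 7 members, up to 4 called genes of largest change per list (or the 2 of highest mean FPKM where none was called), the 2 genes most like each member, and the 4 protein-coding genes on either side of the cluster, not all of which are reported here. Symbols were matched for 34490 genes. A gene was tested where 5 or more libraries reached an FPKM of 1, with limma 3.58.1 (R 4.3.3; intensity trend, two-sided, group as the only term) on log2(FPKM + 1), a scale that understates changes of low genes. Benjamini-Hochberg adjusted p below 0.05 over all tested genes was the threshold. Reads were recovered from FPKM and depth with the annotated gene length or, where that failed, the smallest length that gave whole reads. Whole reads were reached for 23059 of 23059 genes above 0, within 0.002 reads. Since the length could be searched for, this count does not check the reads. For 907 of 908 listed genes the recovered reads equalled the deposited counts in all libraries, and the other genes have no such check. edgeR 4.0.16 called 465 genes and DESeq2 1.42.0 893 on these recovered reads. Depth was 15734303 to 18869545 reads, which bounds counting error only, since PCR copies are not independent molecules. Pair correlations used all 14400 orders within groups. A run on simulated data was also made, whose outcome is not reported here and is not used as a check of the results. Promoters are from RefSeq (all 7 members matched), and shared 50-base words from GENCODE M21 transcripts. Alternatives were pseudocounts of 0.1 and 5, other filters and scalings, a replicate block, edgeR, DESeq2, leaving out each library, and, added after seeing the data, leaving out the 3 libraries of highest summed T cell markers.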

Additional observations from a re-analysis of the deposited data

Results flagged for a closer look

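None of the 7 Schlafen genes had a gland that stood apart from its group by Dixon's criterion. Of the 60 groups of 5 glands looked at (30 named genes), 8 had 1 gland far from the other 4. The criterion flags about 1 in 20 groups of independent, normally distributed values. FPKM of related genes in the same glands are not such values, so the 8 cannot be set against that rate. Among genes set beside the Schlafen family, Irf7 was low in PBS replicate 1, at 39.4 FPKM against 63.3 to 71.3 in the other PBS glands. Csf3r was high in PBS replicate 2, at 3.78 FPKM against 2.24 to 2.64. Pecam1 was low in LPS replicate 1, at 17.5 FPKM against 21.5 to 22.7 in the other LPS glands.

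The other flags were on lymphoid and dendritic cell markers. In LPS replicate 3, Gzmb was at 9.34 FPKM against 2.24 to 3.03 in the other LPS glands, Ighm at 47.5 FPKM against 0.497 to 7.63, and Ccr7 at 8.59 FPKM against 1.04 to 1.92. Igha was at 89.5 FPKM in LPS replicate 1 against 9.39 to 23.4 in the other LPS glands, and Ccr7 at 6.47 FPKM in PBS replicate 2 against 0.587 to 1.99 in the other PBS glands. LPS replicate 3 and PBS replicate 2 are 2 of the 3 libraries of highest summed T cell markers, and each had the highest Slfn1 of its group. Their part in the Schlafen levels was not tested.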

How the results depend on the processing

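Slfn1, Slfn2, Slfn4, Slfn8 and Slfn9 had the same direction under every alternative run. Their log2 changes were 0.28 to 0.92 for Slfn1, 0.76 to 1.05 for Slfn2, 1.64 to 2.29 for Slfn4, 0.42 to 0.77 for Slfn8 and 0.25 to 0.69 for Slfn9. Slfn2 and Slfn4 stayed called in all alternatives except the one without the 3 libraries of highest summed T cell markers, where limma called 0 members (4 at an unadjusted p below 0.05) and 32 genes in all from 7 libraries. The log2 change of Slfn5 turned to -0.045 under median-of-ratios, -0.057 under quantile scaling, -0.181 under FPKM rescaled outside milk proteins, -0.023 with edgeR and -0.021 with DESeq2, and it was -0.10 to 0.18 when single libraries were left out. It was never called.

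Counts depended more on the setting. All genes called were 126 with no filter, 893 with DESeq2 and 144 to 511 when single libraries were left out. For the interferon response they were 9 with no filter, 29 with DESeq2, 12 to 27 without single libraries and 0 without the 3 T cell rich libraries. For interferon receptors and factors they were 0 with no filter (5 at an unadjusted p below 0.05), 1 under each of the 3 other scalings, 1 to 2 without single libraries and 0 without the 3 libraries. For neutrophil markers they were 1 with a pseudocount of 5, 0 with no filter (14 at an unadjusted p below 0.05), 1 with a mean FPKM of at least 5 and 1 under rescaling outside milk proteins. They were 9 with edgeR, 11 with DESeq2, 1 to 7 without single libraries and 0 without the 3 libraries. Pairs of members past the threshold were 0 to 2, with 2 without PBS replicate 3. The cause was not tested.

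The replicate numbers were not taken to pair the glands: deviations of equal numbers correlated at 0.48, 0.36, 0.10, 0.10 and 0.49 across genes, the third under 0.1, and 3 of 5 libraries matched their own number best. With the replicate block 1229 genes were called, 4 members (Slfn8 and Slfn9 added), all 31 interferon response genes, 6 receptors and factors and 9 neutrophil markers. Slfn3, at 10 to 63 reads, is the member that depth limits most.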
